A study of Mus musculus with 62 samples.

Results

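Expression of 32 genes that carry risk for autism in people was followed in the prefrontal cortex and striatum of female mice given a mixture of polychlorinated biphenyls (PCBs) by mouth. The genes were taken by Entrez identifier from a list of named genes, with no cut on a value. All 32 were among the 17653 genes listed for the prefrontal cortex and the 17874 listed for the striatum. All 32 also passed the filter on low counts, which kept 14838 and 15118 genes, so no member was lost in either region.

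Autism risk genes were found through rare damaging variants, and a loss of 1 working copy is often enough to disturb brain development. Most of those described here act in the nucleus, where they open, close or mark chromatin, or switch on programs of neuronal identity. Others tag proteins with ubiquitin, carry kinase or adhesion signals, or work at the neuronal membrane. Many have long genes and long transcripts, so any property of a library that favours short or long transcripts moves them together.

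The study gave female C57BL/6 mice the MARBLES mixture, a PCB blend modelled on exposure in a pregnancy cohort at raised risk of autism, orally at 0.1, 1 or 6 mg/kg, or vehicle alone. The labels name no genetic alteration, and every group is given as the same C57BL/6 strain. Tissue punches of each region gave 4 vehicle libraries, and the doses in rising order had 5, 6 and 6. Age, length of exposure and whether punches were pooled are not given in the sources used here, and p-values measure only the spread between these libraries.

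Libraries held 8722232 to 12135200 counts in the prefrontal cortex and 8283032 to 12019651 in the striatum. In the striatum the totals at 6 mg/kg (8553800 to 9197051) did not overlap those of vehicle (10147296 to 10459212). Each of the 5 cortical excitatory markers and the 6 striatal projection neuron markers was detected in both regions. Summed cortical markers reached 1225 to 2149 CPM (counts-per-million, scaled by edgeR) in the prefrontal cortex and 50.8 to 1602 CPM in the striatum. Summed striatal markers reached 728 to 2325 CPM in the prefrontal cortex and 2121 to 5281 CPM in the striatum. Libraries are named by the number in their titles. In long transcripts, library 54 at 6 mg/kg in the striatum stood apart from its group, and the lowest cortical libraries were 28 (0.1 mg/kg), 45 (1 mg/kg) and 55 (6 mg/kg), each at the low end of its own group.

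The risk genes are long. Their longest annotated transcripts had a median of 8.49 kb, from 2.88 kb for Deaf1 to 16.5 kb for Kmt2a, against 3.41 kb over the genes tested in the prefrontal cortex and 3.4 kb in the striatum. Transcripts of 8 kb and over belonged to 17 of the 32 (53.1%), against 6.01% and 5.99% of tested genes. The genes also spanned more of the genome, with a median of 127 kb against 24.1 and 24 kb, and Cntnap2 reached 2241.3 kb. Base composition differed less, with a median GC content of 48% against 49.9%.

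Promoters are shown for 4 members that the results turn on: Ube3a, Trip12 and Tcf20, whose striatal levels at 6 mg/kg lay below those of another dose group, and Tbr1, the member that differed most between regions. The sequences are the 250 bases before the first start listed by RefSeq (GRCm38.p6), 5′ to 3′ on the gene's own strand, with CpG dinucleotides in capitals. Ube3a lies on the plus strand (chr7:59228500-59228749), Trip12 on the minus strand (chr1:84839305-84839554), Tcf20 on the minus strand (chr15:82912135-82912384) and Tbr1 on the plus strand (chr2:61804203-61804452). The listed starts of Trip12, Tcf20 and Tbr1 fall inside the spans of their genes.
Ube3a: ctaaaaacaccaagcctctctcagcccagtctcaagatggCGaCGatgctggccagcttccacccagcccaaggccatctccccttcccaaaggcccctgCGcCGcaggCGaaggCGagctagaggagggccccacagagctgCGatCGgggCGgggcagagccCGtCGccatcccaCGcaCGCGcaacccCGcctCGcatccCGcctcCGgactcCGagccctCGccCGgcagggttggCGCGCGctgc
Trip12: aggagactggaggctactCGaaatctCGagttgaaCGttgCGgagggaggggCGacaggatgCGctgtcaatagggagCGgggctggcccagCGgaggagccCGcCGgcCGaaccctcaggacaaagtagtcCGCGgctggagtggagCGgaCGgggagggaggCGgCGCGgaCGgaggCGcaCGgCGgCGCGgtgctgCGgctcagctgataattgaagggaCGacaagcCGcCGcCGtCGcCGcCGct
Tcf20: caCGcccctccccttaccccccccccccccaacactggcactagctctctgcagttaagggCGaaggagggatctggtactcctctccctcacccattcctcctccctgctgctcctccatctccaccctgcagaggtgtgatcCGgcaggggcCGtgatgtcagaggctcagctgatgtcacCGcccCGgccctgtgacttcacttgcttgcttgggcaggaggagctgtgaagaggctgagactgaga
Tbr1: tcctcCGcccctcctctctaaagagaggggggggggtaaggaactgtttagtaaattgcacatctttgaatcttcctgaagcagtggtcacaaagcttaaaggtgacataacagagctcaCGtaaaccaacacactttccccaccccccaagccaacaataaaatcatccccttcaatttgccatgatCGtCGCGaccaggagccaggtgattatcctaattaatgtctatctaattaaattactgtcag
Trip12 held 32 CpG and Ube3a 24, against 6 in Tcf20 and 5 in Tbr1. A promoter was listed for 26 members, with a median of 18 CpG, from 0 in Setd5 to 51 in Med13l. The median was 15 over 12130 tested genes and 6 over all 27025 listed promoters. GCGTG, the core that the ligand-activated aryl hydrocarbon receptor binds, was searched on both strands (CACGC on the other). It occurred in 11 of 26 members (42.3%), against 43.7% of tested genes and 28.2% of all promoters of that length. Ube3a held 2 matches that overlap by 1 base, Tcf20 held 1, and Trip12 and Tbr1 none.

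In the vehicle prefrontal cortex, levels per kilobase of transcript ran from 0.831 CPM per kb for Asxl3 to 149 CPM per kb for Ctnnb1, which encodes beta-catenin of the Wnt pathway. Tbr1, a transcription factor of deep-layer cortical neurons, followed at 49.3 CPM per kb. Scn2a, a voltage-gated sodium channel, stood at 42.6, and Ankrd11, a chromatin co-regulator, and Cul3, a ubiquitin ligase scaffold, both stood at 30.2. In CPM, without division by length, Cul3 was at 142 ± 12.5 CPM (SD, n = 4) and Ankrd11 at 256 ± 21.8. At the low end Adnp, a chromatin and heterochromatin factor, had 1.57 CPM per kb and the histone methyltransferase Kmt2c 5.27. Adnp is a poor measure here, because 82.1% of its exonic bases are also annotated to the same-strand gene Gm20716.

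In all, 3 risk genes were lower in the striatum than in the prefrontal cortex of vehicle mice, and none was higher. They were Tbr1, Tcf4, a transcription factor whose loss causes Pitt-Hopkins syndrome, and Scn2a. That is 9.38% of members, against 21.4% of 15402 tested genes that passed in either direction and 10.7% that passed as lower. Of other genes with transcripts of 8 kb and over 25.1% passed, 17.2% as lower. With both regions scaled together, all striatal vehicle libraries lay below all cortical ones in 7 members (21.9%), against 21.1% of those other long genes. They lay above in 0 members, against 8.99%. The CPM below are scaled within each region, while the test scales both regions together.

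Tbr1 read 162, 202, 207 and 213 CPM in the cortical vehicle libraries. In the striatum it read 21.5, 34.4, 41 and 104 CPM, the last in library 8. No striatal library reached a cortical one, and the log2 difference was −2.05 ± 0.38 (SE, adjusted p = 0.000137, edgeR quasi-likelihood test with Benjamini-Hochberg adjustment). Striatal Tbr1 moved with the summed cortical excitatory markers: the 4 libraries highest in Tbr1 (144, 104, 93.3 and 66.8 CPM) were the 4 highest in those markers (1602, 1086, 832 and 546 CPM). The part of those markers' tissue in the Tbr1 values was not tested.

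Tcf4 read 195, 219, 263 and 267 CPM in the cortex against 116, 121, 127 and 157 CPM in the striatum, without overlap. Its log2 difference was −0.94 ± 0.16 (SE, edgeR adjusted p = 2.175e-05). Scn2a read 325, 359.5, 399 and 438 CPM against 252, 265, 268 and 303 CPM, also without overlap. Its log2 difference was −0.57 ± 0.20 (SE, edgeR adjusted p = 0.0405). The Scn2a call was lost in 6 of 8 fits that left out 1 vehicle library, namely cortical libraries 3, 4 and 7 and striatal libraries 3, 7 and 8, with adjusted p up to 0.129.

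When the regions were compared over all 4 dose groups instead of vehicle alone, 14 members passed (43.8%), a choice made after the data had been seen. The share was 56.1% over tested genes and 59.7% over other genes of 8 kb and over. By edgeR, the members higher in the striatum were Cntnap2, a neurexin-family adhesion protein (log2 difference 0.35, adjusted p = 4.908e-06), the reelin gene Reln (0.25, adjusted p = 0.0221), the histone methyltransferase Ehmt1 (0.17, adjusted p = 0.0021) and Adnp (0.36, adjusted p = 0.0471). By edgeR, the members lower beside Tbr1, Tcf4 and Scn2a were Bcl11a, a zinc finger repressor (−0.47, adjusted p = 2.989e-08), Med13l, Cul3, Dyrk1a, Mbd5, Arid1b and Wac, the last 6 between −0.11 and −0.29. In bulk tissue, fewer cells of a type and less RNA per cell cannot be told apart.

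**Figure D1:**
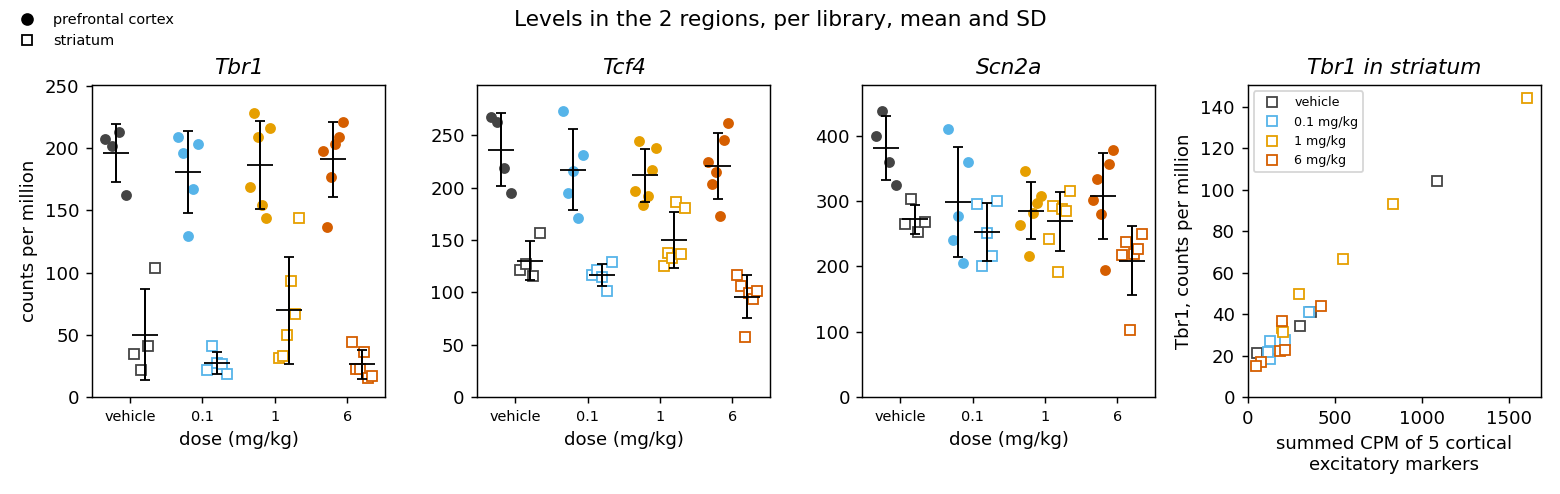
CPM (vertical axes) of Tbr1, Tcf4 and Scn2a by dose in prefrontal cortex (filled circles) and striatum (open squares), 1 point per library with bars for mean and SD; the right panel sets striatal Tbr1 against the summed CPM of 5 cortical excitatory markers. Striatal Tbr1 ran from 15.2 to 144 CPM, and the library with the highest Tbr1 also had the highest marker sum, 1602 CPM.

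In the striatum at 6 mg/kg nearly all risk genes lay below vehicle, as did most other long genes, and none passed. Their median log2 fold change was −0.218, against 0.01 over all tested genes, and 31 of 32 lay below 0 (96.9%), against 48.3% of tested genes and 85.8% of other genes with transcripts of 8 kb and over. Deaf1, a transcriptional regulator with the shortest transcript of the set, was the exception at 0.17. No member passed the edgeR test after adjustment, and no gene of the 15118 did (0.0%). At an unadjusted p under 0.05, edgeR gave 12 members (37.5%), against 15.7% of tested genes and 33.9% of other genes with transcripts of 8 kb and over. All 12 were lower, as were 8.24% of tested genes. DESeq2 gave 14 members at that level (43.8%), against 16.3% of tested genes and 36.4% of other genes of 8 kb and over. After adjustment DESeq2 passed no member, against 0.205% of tested genes and 0.226% of other genes of 8 kb and over.

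By role, no group held a passing member and roles were not tested against each other. The histone methylation and polycomb deubiquitinase group includes Asxl3, Mbd5 and the longest transcript of the set, Kmt2a. It had a median of −0.33 over its 9 members. Of these, 5 had an unadjusted p under 0.05 (55.6%, against the 15.7% and 33.9% above), Asxl3 and Mbd5 among them. The 6 ubiquitin ligase, kinase and signalling genes had a median of −0.23 with 3 such members, and the 9 transcription factors and co-regulators −0.21 with 3. The 5 chromatin remodelling and heterochromatin genes had a median of −0.21 with none, and the 3 membrane and secreted genes −0.20 with 1, Scn2a.

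In 4 members all 6 libraries at 6 mg/kg lay below all 4 vehicle libraries (12.5% of members), against 1.91% of tested genes and 7.57% of other genes of 8 kb and over. Tcf20, a transcriptional co-regulator, read 138, 143, 154 and 157 CPM in vehicle and 88.7 to 130.1 CPM (median 122) at 6 mg/kg, a log2 ratio of −0.35 ± 0.11 (SE, adjusted p = 0.208 by edgeR). Scn2a read 252 to 303 CPM in vehicle and 103 to 250.2 CPM (median 223), and its log2 fold change was −0.38 ± 0.18 (SE, edgeR adjusted p = 0.306). The other 2 both act on histone H3 tails. Ash1l, a methyltransferase, read 146 to 175 CPM in vehicle and 58.7 to 142 CPM at 6 mg/kg. Kdm5b, a demethylase, read 79.9 to 86.5 CPM and 51.7 to 78.8 CPM. Library 54 was the lowest 6 mg/kg library in all 4 genes.

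The remaining members with small p in that comparison overlapped vehicle. Tcf4 read 116, 121, 127 and 157 CPM in vehicle and 57.4 to 117 CPM (median 100.5) at 6 mg/kg, with a log2 ratio of −0.44 ± 0.15 (SE, adjusted p = 0.208 by edgeR). Wac, a regulator of histone H2B ubiquitination, read 96.4, 103, 105 and 118 CPM against 69.7 to 103 CPM, a log2 fold change of −0.26. Mbd5, a subunit of the polycomb deubiquitinase complex, read 56.3 to 67.3 CPM against 32.1 to 57.5 CPM, a log2 fold change of −0.33. Trip12, a ubiquitin ligase, read 157 to 184 CPM against 95.7 to 159 CPM, a log2 fold change of −0.27.

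Single libraries weighed on these counts. Without library 54 the members' median at 6 mg/kg against vehicle was −0.145 and 7 members had an unadjusted p under 0.05, against −0.218 and 12 with it. Without vehicle library 4 the number was 4, and without vehicle library 8 it was 7. The matching shares in these 3 fits were 21.9%, 12.5% and 21.9% of members, 11%, 10.1% and 12.7% of tested genes, and 26.2%, 18.4% and 26% of other genes of 8 kb and over. Oligodendrocyte markers, summed over 4 markers, ran from 3503 to 5333 CPM in vehicle and from 5331 to 7410.4 CPM at 6 mg/kg. They did not rise step by step with dose, with medians of 4923, 4659.6, 5363 and 5821 CPM from vehicle to 6 mg/kg. The highest single sum, 8775 CPM, was at 1 mg/kg. The blood markers measured had a median of 64.6 CPM at 6 mg/kg against 98.9 CPM in vehicle, with overlap (38.9 to 120.2 CPM against 56.6 to 459.5 CPM). The summed cortical markers had a median of 192 CPM at 6 mg/kg and 130.3 CPM at 0.1 mg/kg, against 333 CPM in vehicle. Summed choroid plexus markers ran from 35.6 to 686 CPM in vehicle and from 28.2 to 2584 CPM at 6 mg/kg. The part of all these markers in the risk genes' values was not tested.

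**Figure D2:**
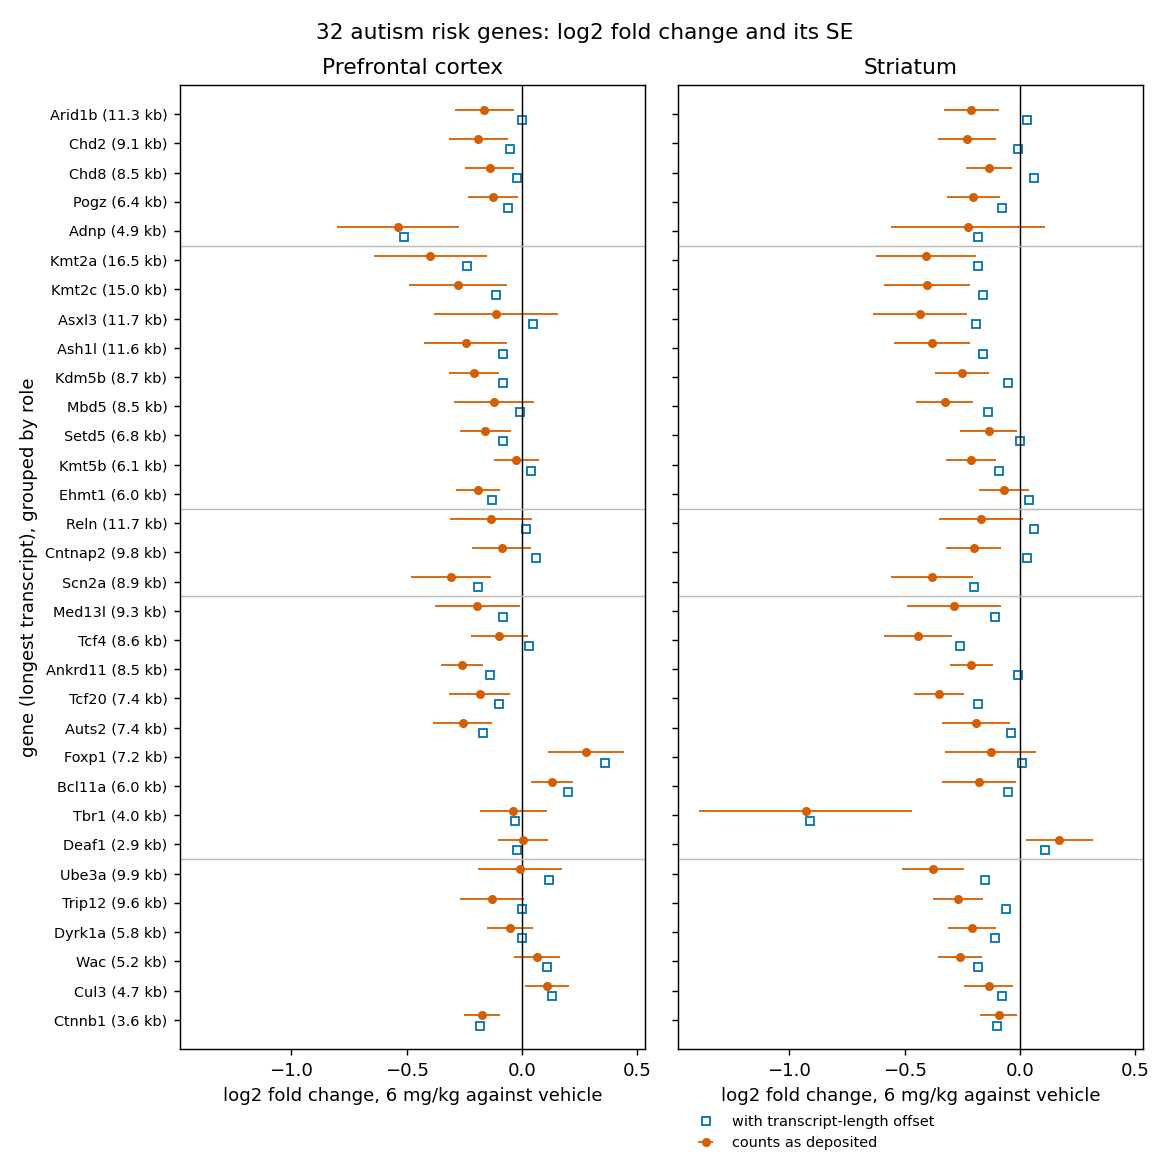
Log2 fold change of each of the 32 risk genes at 6 mg/kg against vehicle (horizontal axes) in the prefrontal cortex and striatum, grouped by role with transcript length in brackets; filled circles with SE bars are from the deposited counts and open squares from the fit with a transcript-length offset. In the striatum 31 of 32 circles lie left of 0, and the squares have a median of −0.086.

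At the lower doses no striatal risk gene passed either. The members' median log2 fold change was −0.059 for 1 mg/kg and −0.055 for 0.1 mg/kg, with 0 members passing the edgeR test at either dose, as for all genes (0.0%). At an unadjusted p under 0.05, edgeR gave 1 member for the middle dose (3.12%, against 7.36% of tested genes) and 0 for the lowest (against 2.53%), and DESeq2 gave 2 and 0 (against 7.84% and 2.73%). The 1 member was Ehmt1, which read 33.3 to 45.3 CPM in vehicle and 30.9 to 37.6 CPM at 1 mg/kg, overlapping. Cul3 read 107 to 146 CPM in vehicle and 124 to 165 CPM at 1 mg/kg, a log2 fold change of 0.21 (edgeR adjusted p = 0.678). These 3 comparisons share the same 4 vehicle libraries. Over dose rank 11 members had an unadjusted p under 0.05 (34.4%), all lower with dose, against 13.1% of tested genes (6.0% lower) and 25.3% of other genes of 8 kb and over (23.6% lower), and none passed after adjustment in edgeR or DESeq2. Kmt2c, 1 of the 11, read 66.9 to 111 CPM in vehicle and 30.7 to 85.9 CPM (median 65.3) at 6 mg/kg. Chd2, a chromatin remodeller, read 49.7 to 67.7 CPM and 38.1 to 61.3 CPM (median 51.1). Both overlapped vehicle.

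Ube3a was the 1 risk gene that passed any of the main edgeR comparisons between dose groups or over dose rank. It encodes the ubiquitin ligase lost in Angelman syndrome and lies on chromosome 7 (mm10 chr7:59228750-59310837, plus strand). In the striatum it read 109.6, 111, 129.6 and 166 CPM in vehicle. The lowest dose gave 123 to 152 CPM and the middle dose 114 to 158 CPM (median 145). At 6 mg/kg it read 65.5, 101, 104, 108, 108 and 110 CPM, the lowest in library 54. All 6 of these lay below the 5 libraries at 0.1 mg/kg, while 1 of them overlapped the vehicle range.

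Against 0.1 mg/kg, Ube3a fell by 0.47 ± 0.13 on the log2 scale (0.723-fold, edgeR quasi-likelihood adjusted p = 0.0461). This is 1 of 32 members (3.12%), against 2.91% of tested genes that passed and 1.25% that passed as lower. Of other genes of 8 kb and over 3.39% passed. Against vehicle its log2 fold change was −0.38 ± 0.13 (SE, edgeR adjusted p = 0.221). The call rests on its threshold: leaving out library 52, 53, 54, 55, 56 or 58 at 6 mg/kg, or 23, 24, 25 or 29 at 0.1 mg/kg, gave adjusted p from 0.0509 to 0.135, and leaving out library 28 gave 0.0471. With an offset for transcript length the log2 fold change was −0.29 (edgeR adjusted p = 0.0689), and with length and GC −0.15 (adjusted p = 0.203).

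Strand use in the counting is unknown, and 27.3% of the exonic bases of Ube3a are also annotated on the opposite strand, to 9330162G02Rik, Gm44560 and Snhg14. Snhg14 holds the antisense transcript that silences the paternal Ube3a copy in neurons, so counts of the sense and antisense RNA cannot be told apart. In the prefrontal cortex Ube3a read 113 to 151 CPM in vehicle and 84.9 to 173 CPM (median 134) at 6 mg/kg, and its log2 fold change was −0.01 ± 0.18 (SE).

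In the same striatal comparison of 6 with 0.1 mg/kg, 9 members had an unadjusted edgeR p under 0.05 (28.1%), all lower, against 22.3% of tested genes and 10.7% as lower. The share was 32.5% over other genes of 8 kb and over. Trip12 read 159.7, 171, 174, 178 and 186 CPM at 0.1 mg/kg and 95.7 to 159 CPM at 6 mg/kg, without overlap (in the list Ube3a and Trip12, or 6.25%, against 3.01% of tested genes and 6.55% of other genes of 8 kb and over), a log2 ratio of −0.33 ± 0.10 (SE, adjusted p = 0.0756 by edgeR). Wac read 99 to 114 CPM and 69.7 to 103 CPM, a log2 ratio of −0.26 ± 0.09 (SE, adjusted p = 0.0927 by edgeR). DESeq2 passed 3 members, Ube3a (adjusted p = 0.0128), Trip12 (0.0310) and Wac (0.0443), or 9.38% of members against 7.3% of tested genes and 10.6% of other genes of 8 kb and over. With a slope over the dose itself in place of its rank, edgeR passed 5 members, Ube3a, Trip12, Wac, Tcf20 and Tcf4, with adjusted p from 0.0139 to 0.0371. That is 15.6% of members, against 12.3% of tested genes and 23.1% of other genes of 8 kb and over.

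**Figure D3:**
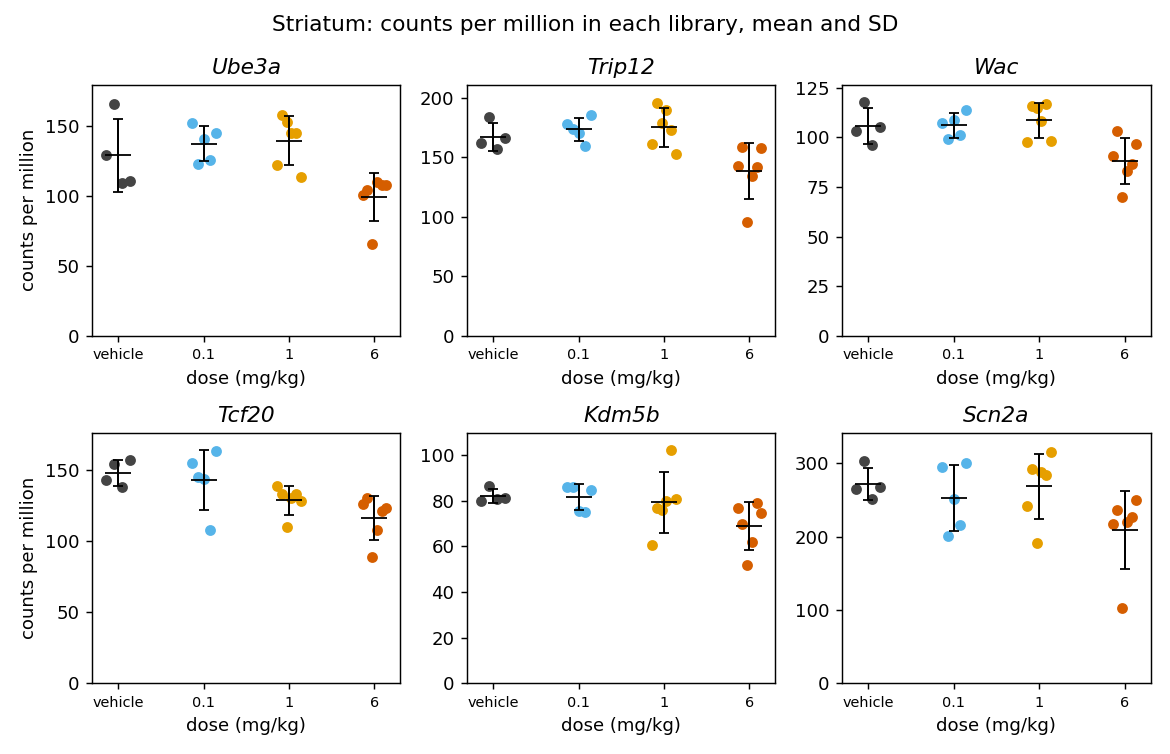
CPM (vertical axes, from 0) of 6 risk genes in the striatum by dose in mg/kg (horizontal axes), 1 point per library, with bars for mean and SD (n = 4, 5, 6 and 6). Ube3a at 6 mg/kg lies between 65.5 and 110 CPM, below every library at 0.1 mg/kg, and the lowest point at 6 mg/kg in each panel is library 54.

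In the prefrontal cortex most risk genes lay below vehicle at each dose, with no member passing. The 3 comparisons share their 4 vehicle libraries. From the highest dose to the lowest, their median log2 fold change was −0.136, −0.182 and −0.176, and 27, 30 and 28 of the 32 lay below 0. These are 84.4%, 93.8% and 87.5%, against 48.9%, 49.1% and 48.1% of tested genes and 79.1%, 91.6% and 90.5% of other genes of 8 kb and over. After adjustment 0 members and 0 genes (0.0%) passed in edgeR at any dose. DESeq2 passed 0 members at any dose, against 0.168%, 0.0% and 0.00674% of tested genes. At an unadjusted p under 0.05, edgeR gave 2, 6 and 1 members, or 6.25%, 18.8% and 3.12%. The background was 9.27%, 8.29% and 6.43% of tested genes, and 11.4%, 20.4% and 14.2% of other genes of 8 kb and over. At that level DESeq2 gave 3, 6 and 0 members, against 9.77%, 8.67% and 6.79% of tested genes and 11.3%, 19.5% and 14.6% of other genes of 8 kb and over.

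Ankrd11 had the smallest p of the members at 6 mg/kg. It read 236, 246, 256 and 287 CPM in vehicle and 172 to 239.8 CPM (median 218) at 6 mg/kg, a log2 ratio of −0.26 ± 0.09 (SE, adjusted p = 0.389 by edgeR). Ctnnb1 read 515, 538, 542 and 566 CPM in vehicle and 429.5 to 535 CPM (median 478), a log2 ratio of −0.17 ± 0.08 (SE, adjusted p = 0.499 by edgeR). In both genes all 6 libraries lay below the vehicle median, and the groups overlapped. Foxp1, a forkhead factor of striatal and cortical projection neurons, stood on the other side of vehicle: 116 to 162 CPM in vehicle and 107 to 189 CPM (median 174) at 6 mg/kg, a log2 ratio of 0.28 ± 0.16 (SE, adjusted p = 0.628 by edgeR).

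The next members by p at 6 mg/kg in the cortex did not pass either. Adnp read 6.94, 7.09, 8.33 and 8.53 CPM in vehicle and 2.81 to 6.98 CPM (median 5.55) at 6 mg/kg, with a log2 ratio of −0.54 ± 0.26 (SE, adjusted p = 0.5426 by edgeR). Auts2, a polycomb-associated activator, read 104 to 116 CPM in vehicle and 65.2 to 109 CPM (median 96.1), a log2 ratio of −0.26. Ehmt1 read 30.5 to 35.6 CPM in vehicle and 26.9 to 34.6 CPM (median 29.2), a log2 ratio of −0.19. All 3 overlapped vehicle. Kmt2a, the histone H3 lysine methyltransferase with the longest transcript of the set, read 147 to 197 CPM in vehicle and 62.8 to 159.7 CPM (median 122) under 1 mg/kg, a log2 ratio of −0.52 ± 0.24 (SE, adjusted p = 0.5879 by edgeR).

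Kdm5b had cortical vehicle values close to each other, at 84.2, 85.1, 86.7 and 87.2 CPM. At 0.1 mg/kg it read 57.1, 71.0, 75.3, 79.0 and 82.6 CPM, the only member whose libraries did not overlap vehicle at that dose (3.12%, against 1.14% of tested genes and 5.4% of other genes of 8 kb and over), with a log2 ratio of −0.23 ± 0.11 (SE, adjusted p = 0.742 by edgeR). The middle dose gave 61.1 to 85.5 CPM and the highest 62.1 to 84.5 CPM, both touching the vehicle range. At 1 mg/kg Scn2a read 216 to 346 CPM (median 289) against 325 to 438 CPM in vehicle, a log2 fold change of −0.41, and Trip12 read 108 to 169 CPM against 169 to 195 CPM, a log2 fold change of −0.32. Setd5 and Pogz, with log2 fold changes of −0.24 and −0.23, came next at 0.1 mg/kg, both with an edgeR adjusted p of 0.742.

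Single libraries recurred at the low end of these cortical genes. Library 55 was the lowest 6 mg/kg library in Ankrd11, Ctnnb1, Kdm5b and Foxp1, and library 45 the lowest at 1 mg/kg in Scn2a, Trip12 and Kdm5b. Without libraries 28, 45 and 55 together, a choice made after seeing the data, the medians were −0.063, −0.131 and −0.103, and again no member passed. Between 6 and 0.1 mg/kg the members' median was 0.035, and 0 members passed in edgeR, 0 at an unadjusted p under 0.05 and 0 in DESeq2. Of tested genes, 0.108% passed and 10.1% fell under the unadjusted limit. Over dose rank 4 members (Ankrd11, Auts2, Ctnnb1 and Ehmt1) had an unadjusted p under 0.05 (12.5%), against 9.79% of tested genes and 11.7% of other genes of 8 kb and over, and none passed in edgeR or DESeq2, against 0.0202% of tested genes in edgeR.

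Long transcripts outside the list had medians near those of the risk genes in the striatum at 6 mg/kg and in the cortex, and the difference from the risk genes was not tested. In the striatum at 6 mg/kg, the 885 other genes with transcripts of 8 kb and over had a median log2 fold change of −0.25, and those under 2 kb had 0.15. In the prefrontal cortex the other long genes had medians of −0.14, −0.24 and −0.21 at 6, 1 and 0.1 mg/kg, beside −0.14, −0.18 and −0.18 for the members. In the striatum at the middle and lowest doses the other long genes had medians of −0.02 and −0.04, with 55.6% and 62.3% below 0. The members had −0.059 and −0.055, with 68.8% and 71.9% below 0, and the shares over tested genes were 48.4% and 50.8%. Within the list both length classes lay below 0. The 17 members of 8 kb and over had a median of −0.29 in the striatum at 6 mg/kg and the 15 shorter ones −0.19. In the cortex at 1 mg/kg the values were −0.27 and −0.09.

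**Figure D4:**
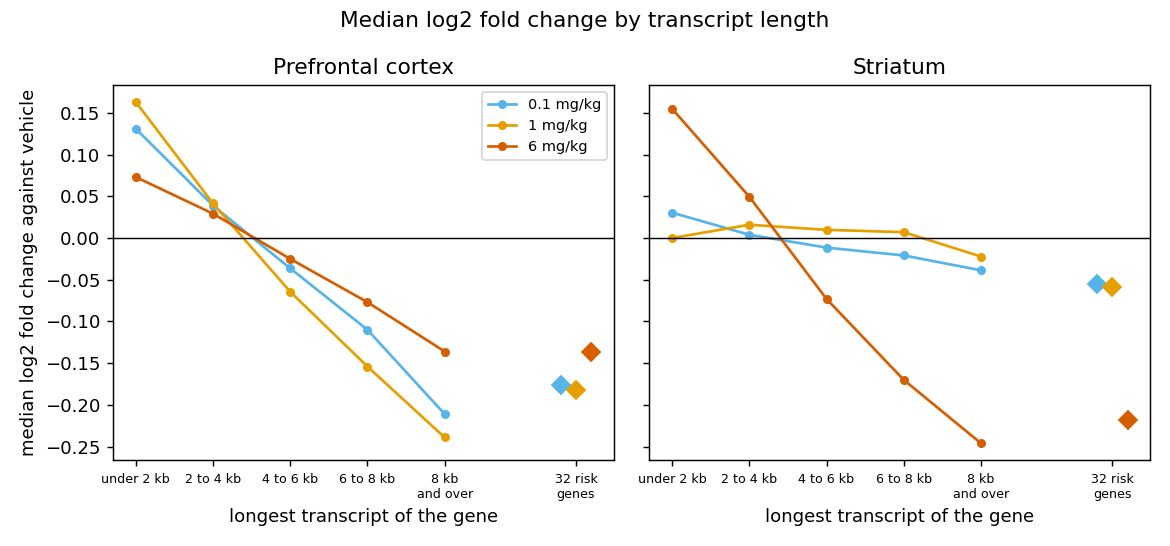
Median log2 fold change against vehicle (vertical axis) of genes outside the list, by length of the longest transcript (horizontal axis, lines with circles), and of the 32 risk genes (diamonds), at 0.1, 1 and 6 mg/kg in each region. The lines slope downward at all 3 doses in the cortex and at 6 mg/kg in the striatum, where they run from 0.15 to −0.25, and the diamonds lie near the class of 8 kb and over.

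The same held library by library. Measured as the median log2 deviation from the vehicle mean, the risk genes and the other genes of 8 kb and over differed by at most 0.118 in any of the 21 cortical libraries and by at most 0.084 in any of the 21 striatal libraries. Library 54 stood at −0.79 for the risk genes and −0.86 for the other long genes, and its genes under 2 kb stood at 0.51. In the cortex libraries 55, 45 and 28 stood at −0.53, −0.50 and −0.44. Vehicle libraries ran from −0.05 to 0.14 in the cortex and from −0.11 to 0.07 in the striatum.

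**Figure D5:**
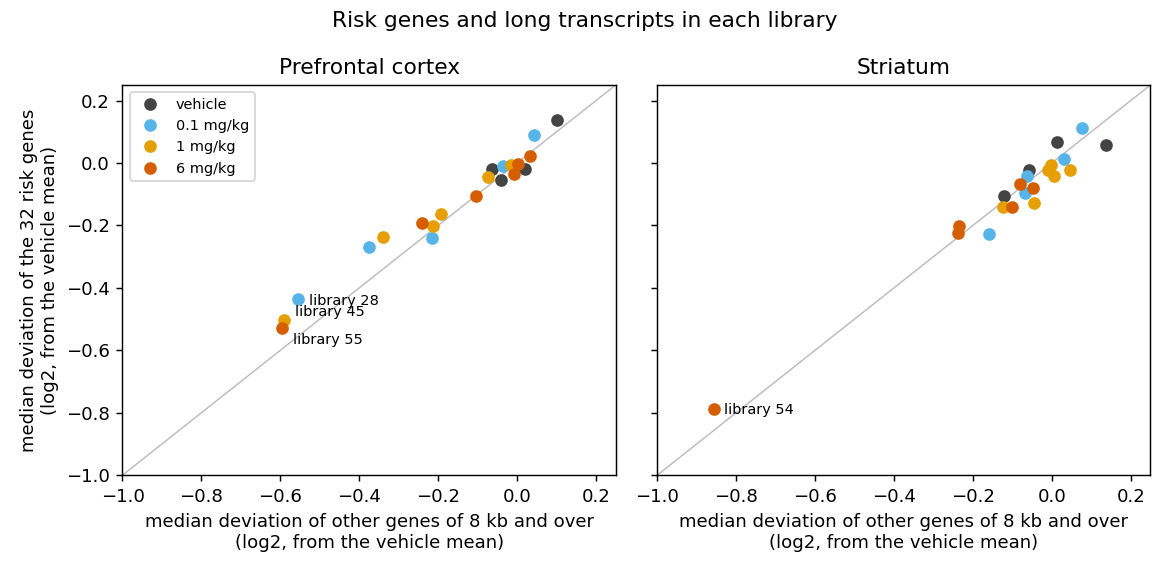
Median log2 deviation from the vehicle mean of the 32 risk genes (vertical axes) against that of other genes with transcripts of 8 kb and over (horizontal axes), 1 point per library coloured by dose, with a line of equality. Points follow the line in both regions, with library 54 lowest in the striatum (−0.79) and libraries 55, 45 and 28 lowest in the cortex.

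With an offset for transcript length, fitted to each library over expressed genes of known length, most of the displacement was gone. The fit used these same counts, with members and all dose groups included, so it removes any shift that goes with length. It therefore cannot tell a dose effect on long transcripts from a property of the libraries. The members' median became −0.026, −0.035 and −0.015 in the cortex at 6, 1 and 0.1 mg/kg and −0.086 in the striatum at 6 mg/kg. In the striatum 3 members then had an unadjusted edgeR p under 0.05 (9.38%, against 12.2% of tested genes): Wac (log2 fold change −0.18), Tcf4 (−0.26) and Tcf20 (−0.18). In the cortex at 6 mg/kg there were 5: Foxp1 (0.36), Bcl11a (0.20), Ctnnb1 (−0.18), Scn2a (−0.19) and Adnp (−0.51), 15.6% of members against 10% of tested genes. Among them Adnp is a poor measure, because of its overlap with Gm20716 described above. No member passed after adjustment with the offset. An offset for genomic span in place of transcript length left medians of −0.090 and −0.139 at 6 mg/kg in cortex and striatum.

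The effect of 6 mg/kg was not shown to differ between the regions for any member. In the test of the difference of the effects, 0 members and 0 of 15402 genes (0.0%) passed in edgeR, and DESeq2 passed 0 members. At an unadjusted p under 0.05 both tools gave 1 member (3.12%, against 6.85% of tested genes by edgeR), and in edgeR it was Wac. Wac read 92.4 to 114 CPM in vehicle and 93.3 to 131 CPM at 6 mg/kg in the cortex, beside the lower striatal values above, a difference of −0.34 ± 0.14 on the log2 scale (SE, edgeR adjusted p = 0.718). The members' median difference was −0.114, and without striatal library 54 it was 0.001.

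Other autism-associated genes, from 4 lists that share no gene with the 32, were measured in the same fits. At 6 mg/kg against vehicle no gene of these lists passed in either region in edgeR. The medians in the striatum were −0.14 over 16 chromatin genes, −0.20 over 11 transcription factors, −0.24 over 20 synaptic and channel genes and −0.17 over 8 growth and translation genes. Between 6 and 0.1 mg/kg in the striatum 3 of these 55 genes passed, all lower, beside the 2.91% of tested genes (1.25% lower) and 3.39% of other genes of 8 kb and over given above. They were Fmr1, the fragile X RNA-binding protein (log2 fold change −0.53 ± 0.11, SE, edgeR adjusted p = 0.0293), Taok1, a kinase (−0.55 ± 0.15, adjusted p = 0.0461), and Rfx3, a ciliary transcription factor (−0.62 ± 0.16, adjusted p = 0.0365). Between the regions in vehicle 8 of the 20 synaptic and channel genes were lower in the striatum and 1 was higher, against 10.7% of tested genes lower and 21.4% either way, and 17.2% and 25.1% of other genes of 8 kb and over. Of the 8 growth and translation genes 3 were lower, of the 11 transcription factors 2 were lower and 2 higher, and of the 16 chromatin genes 1 went each way. Those higher in the striatum included Tcf7l2, a Wnt pathway factor (log2 difference 2.28, edgeR adjusted p = 0.00231), Foxp2, a forkhead factor (0.82, adjusted p = 0.00781), and Chd7, a chromatin remodeller (0.87, adjusted p = 0.00274). Among the synaptic and channel genes the smallest p was that of Kcnma1, a potassium channel (log2 difference −1.03 ± 0.20, SE, edgeR adjusted p = 0.000134).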

How the data were processed

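RNA from tissue punches was sequenced, and the authors deposited raw counts per gene by Entrez identifier, 1 table per region. Per the submitters' processing notes, FastQC and HISAT2 were used with mm10. The kind of RNA selection, the counting tool, annotation and strand setting are not given in the sources used here. Groups come from the treatment labels.

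Counts were filtered (edgeR filterByExpr), scaled by TMM and tested with edgeR 4.0.16 in R 4.3.3 (quasi-likelihood, all dose groups of a region in 1 fit, Benjamini-Hochberg over all genes, threshold 0.05), and DESeq2 1.42.0 as an alternative. Regions were compared in a joint fit scaled over both, while printed CPM are scaled within each region. Transcript lengths are the longest GENCODE vM21 transcript, spans are from RefSeq GRCm38.p6, and length offsets were splines with 5 degrees of freedom fitted per library. The scripts were tested on simulated counts. No 2 libraries agreed within sampling noise (lowest chi-square per degree of freedom 4.84 in cortex and 2.94 in striatum, over genes with at least 20 counts).

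The risk genes, the other lists and the markers were chosen with earlier results of these data known. Named members were, per region, up to 6 with the smallest p at 6 mg/kg, up to 2 further per lower dose and 3 further per other dose test, up to 10 with the largest passing region difference, and 3 for the difference of effects. Of the other lists, up to 3 passing genes per list and comparison were named, else the 1 with the smallest p. Further members, such as Ash1l and Deaf1, were named after their values were seen. Liver was not analysed here. Alternatives were other size factors, no low-count filter, length, GC and span offsets, DESeq2, fits on fewer groups, a replicate block and each library left out.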

Additional observations from a re-analysis of the deposited data

Results flagged for a closer look

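In the striatum at 6 mg/kg, library 54 stood far from the other 5 libraries in the median log2 deviation of the 32 risk genes from the vehicle mean. It read -0.787, and the others lay between -0.223 and -0.068. The same library stood apart in Ube3a, at 65.5 CPM against 101 to 110 CPM. Both were picked out because the gap to the nearest library took up most of the group's range. Of 45 sets of values examined in this way 2 stood out, and chance alone gives about 2.25.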

How the results depend on the processing

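Of the alternative values for named genes and for members that passed in any setting, 1112 kept direction and side of the threshold, 18 lost the threshold, 22 gained it and 6 changed sign. Of the summary values 457 stayed close to the reported ones and 17 moved. For the striatum at 6 against 0.1 mg/kg, the number of members passing was 0 with a transcript-length offset, 0 with length and GC, 3 by DESeq2, and 0 to 2 when 1 library was left out. Ube3a in that comparison ran from -0.51 to -0.37 with 1 library left out. Cntnap2 there was 0.01 with length and GC. Over dose in the striatum 5 members passed with a slope over mg/kg, against 0 over dose rank. Between regions 14 members passed over all 4 dose groups, a choice made after seeing the data, 5 with length and GC, and 2 to 3 with 1 library left out. For the offset and left-out fits the shares of tested genes passing are not given here, so those counts are no result about the members. Wac between regions was 0.07 with length and GC, and ran from -0.10 to 0.02 (-0.04 with all libraries) with 1 library left out. Cul3 in the difference of the effects was 0.02 with length and GC. The causes were not tested.

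Deviations from dose-group means correlated with a mean r of 0.0936 between same-numbered cortical and striatal libraries. Other pairs within the same dose group had a mean of -0.0199. This is no separate baseline, because centring on group means ties both values together. Of the same-numbered pairs, 12 of 21 exceeded 0.1, with a lowest of -0.083, and in 12 of 21 the best match was the same number. This is a hint of pairing from the data, and the labels do not say what the number marks, so pairing was not assumed. With a replicate block 3 members passed between regions, with a median of -0.079, and 0 passed for the difference of the effects, with a median of -0.113. The shares of tested genes passing with the block are not given here, so these counts are no result about the members. Counting depth limits the low genes most, such as Asxl3 and Adnp.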
